A study of Homo sapiens with 12 samples.

Results

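Of the 58302 genes in the deposited table, 9 amino acid transporter genes were taken by symbol (SLC7A5, SLC3A2, SLC7A11, SLC7A1, SLC1A4, SLC1A5, SLC38A1, SLC38A2 and SLC6A9) and followed over 12 RNA-seq libraries. The list was drawn up with earlier results of these data known. The libraries were 3 each of TPC1, a human papillary thyroid carcinoma cell line, and of its 3 CRISPR-Cas9 derivatives D11, WB1 and TD5. D11, WB1 and TD5 are Dicer1 (+/-), carry a deletion in one allele at a guide placed in exon 11, and were each grown from a single cell, so each stands for 1 clone. All 4 lines share the TPC1 background, the labels name no agent given to any of them, and nothing in the labels says that libraries of a line came from separate cultures. The p-values below therefore measure the spread between these libraries, which may be technical. The question was how levels of the transporter transcripts differed between TPC1 and the clones, and between clones.

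Amino acids cross the plasma membrane through carriers that either exchange one amino acid for another or ride on the sodium gradient. SLC7A5 (LAT1) brings in leucine and other large neutral amino acids and SLC7A11 (xCT) brings in cystine in exchange for glutamate, and both work only when joined to the heavy chain SLC3A2 (CD98hc, 4F2hc). SLC7A1 (CAT1) carries arginine and lysine. SLC1A4 (ASCT1) and SLC1A5 (ASCT2) exchange alanine, serine, cysteine and, for SLC1A5, glutamine. SLC38A1 (SNAT1) and SLC38A2 (SNAT2) load cells with glutamine and other small neutral amino acids together with sodium. SLC6A9 (GLYT1) takes up glycine. Several of these genes are known targets of ATF4, the transcription factor of the amino acid response, which binds with C/EBP partners at a composite DNA element. The amino acids they bring in are used for protein synthesis and are sensed by the growth kinase complex mTORC1.

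The promoter sequences are shown because that shared element is the best known link between these genes. RefSeq windows (GRCh38.p14, 250 bases before to 50 bases after each start) were found for 8 of the 9 genes (all but SLC7A11), 14 windows in all. The core of the composite element, searched as TGATGNAA on both strands, was present in 5 of the 14 windows, against 3.62% of all 35116 windows. The 5 belong to SLC3A2, SLC7A1, SLC1A4, SLC1A5 and SLC38A1. SLC3A2 and SLC1A5 have 3 windows each, and SLC1A4 and SLC38A1 have 2, 1 for each annotated start. Except for SLC7A1, the window with the match lies wholly inside the annotated bounds of the gene. Its start is thus not the outermost one, and which start these cells use was not tested. Each stretch is given 5′ to 3′ on the strand of the gene, with the match in capitals. In SLC3A2 and SLC1A4 the match lies in the reverse complement.
SLC3A2, chr11:62881726-62881748, plus strand: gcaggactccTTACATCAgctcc
SLC7A1, chr13:29595664-29595691, minus strand: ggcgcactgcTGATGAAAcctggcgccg
SLC1A4, chr2:64989382-64989409, plus strand: cggctcccgtTTGCATCAtctccagccg
SLC1A5, chr19:46784894-46784921, minus strand: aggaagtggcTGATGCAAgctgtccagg
SLC38A1, chr12:46266503-46266530, minus strand: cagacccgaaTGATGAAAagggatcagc
The window of SLC7A5 held no TGATGNAA. It held an E-box, CACGTG, found in 7.26% of all windows and in 2 of the 14 (SLC7A5 and SLC1A5). It also held a match to the antioxidant response element core TGACNNNGC. This was found in 13.3% of all windows and in 4 of the 14 (SLC7A5, SLC3A2, SLC7A1 and SLC1A5). Of these matches only those of SLC7A5 are shown, because it had the highest level of the 9 genes.
SLC7A5 E-box, chr16:87869622-87869647, minus strand: ccggacgacgCACGTGctccgagctg
SLC7A5 antioxidant response element core, chr16:87869491-87869519, minus strand: gcggggttccTGACGCAGCtgcgggcggc
These matches describe letters in the windows and say nothing of binding in these cells.

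Values are reads scaled by the authors to a library of 20000000, called scaled reads here. The reads behind each library were estimated at 12700000 to 21020000, so that 3 reads, the floor used here, are worth 2.85 to 4.72 scaled reads (counting error only). The lowest value of any transporter gene in any library was 75 scaled reads, and all 9 genes were among the 16027 tested. DICER1 itself had 1360, 1129 and 1101 scaled reads in TPC1, 977, 1051 and 1093 in D11. WB1 had 881, 939 and 815, and TD5 643, 627 and 809. It was lower than TPC1 by at least 1.5-fold in TD5 (log2 fold change -0.77, limma adjusted p = 9.02e-05), lower by less in WB1 (-0.43, limma adjusted p = 0.00404), and did not pass in D11 (-0.19, limma adjusted p = 0.138). These are RNA levels. By Western blot, the paper reported significantly less Dicer1 protein in D11, WB1 and TD5 than in TPC1. Of 10 thyroid follicular markers, PAX8 gave nearly all reads, and TSHR, NKX2-1 and SLC5A5 were listed at 0 in every library. The summed level of the 10 was 7655 to 8944 scaled reads in TPC1, 7875 to 8381 in D11, 8704 to 10134 in WB1 and 9245 to 10049 in TD5. The 4 endothelial markers summed to at most 9 scaled reads. The leukocyte list summed to 925 to 1154 in TPC1, 981 to 1130 in D11, 1253 to 1518 in WB1 and 1211 to 1364 in TD5, nearly all from CD68, which many cell types express, while CD3E was listed at 0. Fibroblast markers summed to 257 to 362 in TPC1, 165 to 203 in D11, 233 to 355 in WB1 and 187 to 219 in TD5, with DCN at 0. The 6 epithelial markers summed to 21317 to 24330 scaled reads in TPC1, 17176 to 18680 in D11, 18108 to 18580 in WB1 and 16887 to 19326 in TD5. Their sum was thus lower in every clone library than in any TPC1 library. The part of these markers in the results was not tested.

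The 9 genes together took 0.298% to 0.337% of all scaled reads in TPC1, 0.283% to 0.290% in D11, 0.222% to 0.231% in WB1 and 0.254% to 0.276% in TD5, and SLC7A5 alone made 36.8% to 51.1% of that sum. Levels of different genes were compared per kilobase of the MANE Select transcript. In TPC1, SLC7A5 stood first at 336 ± 37.5 reads per 1000000 per kilobase (mean ± SD, n = 3), and SLC3A2 second at 246 ± 27.7. SLC1A5 followed at 85.9 ± 6.94 and SLC7A1 at 53.7 ± 1.36. SLC38A2 (39.5 ± 5.16) and SLC38A1 (34.8 ± 2.26) came next and did not differ beyond their spread. The last 3 genes were far lower, with SLC6A9 at 3.61 ± 0.387, SLC7A11 at 2.84 ± 0.329 and SLC1A4 at 1.25 ± 0.279. The first 3 places were held by the same genes in all 4 lines. SLC38A2 came after SLC1A5 in D11 at 56.2 ± 4.33, with SLC7A1 at 54.5 ± 1.01, a difference within their spread.

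**Figure D1:**
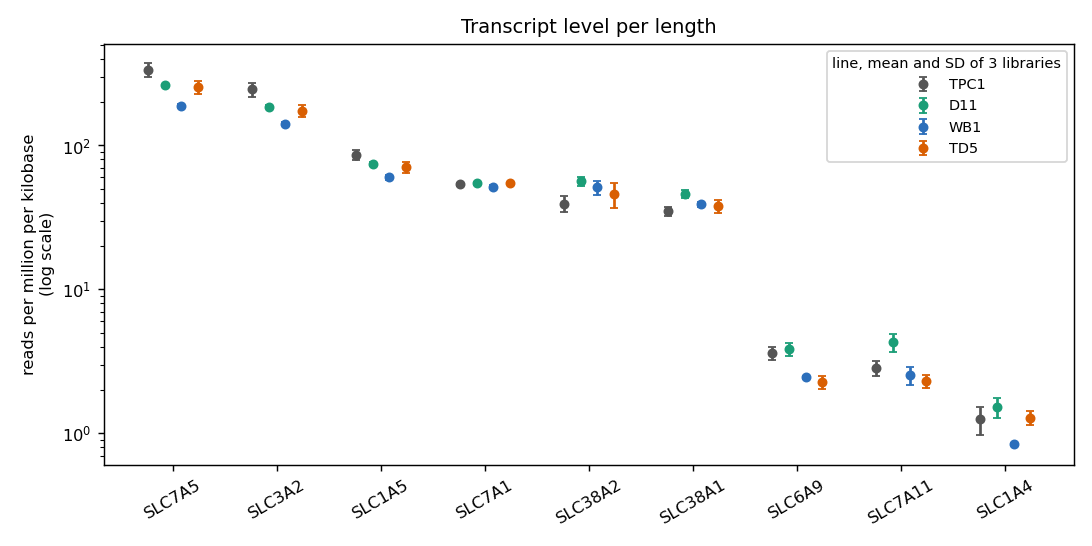
Level of each transporter gene per transcript length (reads per 1000000 per kilobase, log scale) in TPC1, D11, WB1 and TD5, as the mean and SD of 3 libraries. SLC7A5 and SLC3A2 stand highest in every line (187 or more and 142 or more), and SLC6A9, SLC7A11 and SLC1A4 lie at 4.29 or less.

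Across the 4 lines, 8 of the 9 genes differed (limma F test, Benjamini-Hochberg adjusted p over all 16027 genes), where 44.6% of all tested genes did so. SLC7A1 was the exception (limma adjusted p = 0.267). Calls between lines required 1.5-fold or more together with a limma adjusted p under 0.05, on the scale of log2(value per 1000000 + 1). By this rule SLC7A5 and SLC3A2 were lower in WB1, SLC6A9 was lower in TD5, and no transporter gene was called in D11 or called higher in any clone. In WB1 2 of the 9 genes were called lower, where 1.59% of all tested genes were. In TD5 it was 1 of 9, where 1.48% were. In D11 it was 0 of 9, where 4.84% of all genes were called in either direction. At an adjusted p under 0.05 with no minimum fold, D11 had 3 genes higher and 3 lower, WB1 1 higher and 5 lower, and TD5 0 higher and 4 lower. The share of all tested genes that passed this was 19.9% higher and 13.4% lower in D11, 18.6% higher and 12.3% lower in WB1, and 5.32% higher and 6.57% lower in TD5. The libraries of a clone lay wholly above or below those of TPC1 for 6 of the 9 genes in D11, 7 in WB1 and 4 in TD5, where this held for 50.6%, 45.3% and 26.5% of all tested genes. The median log2 fold change of the 9 genes was 0.085 in D11, -0.45 in WB1 and -0.28 in TD5, beside medians over all tested genes of 0.054, 0.058 and 0.00059. The 3 comparisons share the TPC1 libraries.

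**Figure D2:**
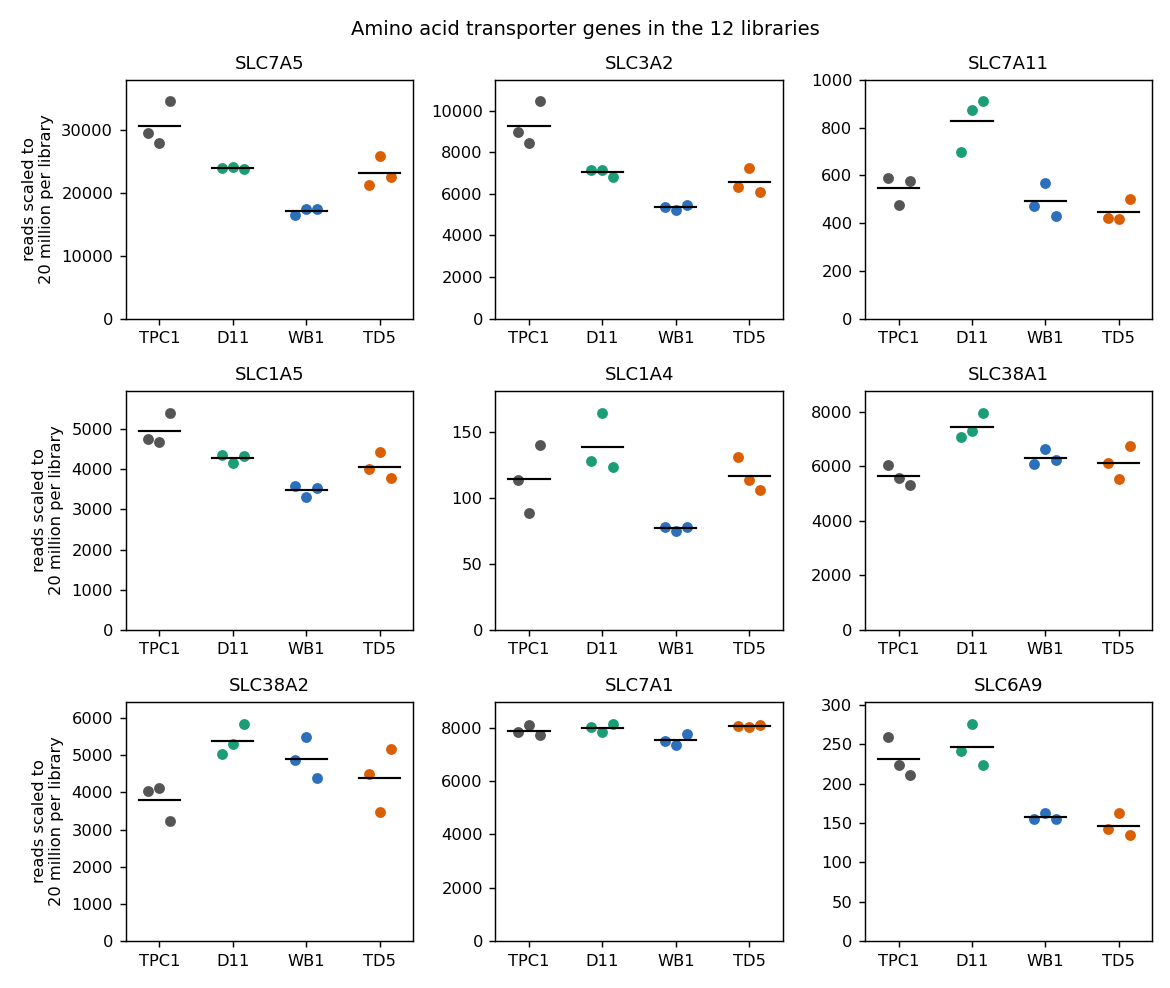
Scaled reads (20000000 per library) of the 9 transporter genes in each library, with 1 point per library, 3 per line, and a bar at the mean, each axis starting at 0. SLC7A5, SLC3A2 and SLC1A5 lie lower in all 9 clone libraries than in any TPC1 library, SLC7A11 is highest in D11 (699 to 910), and SLC7A1 stays between 7342 and 8156 in all 12 libraries.

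GC content moved with these results and is given first, because the 9 transcripts span a wide range of it. SLC7A11 (35.4% GC), SLC38A2 (37.4%) and SLC38A1 (41.3%) are GC-poor, SLC1A4 (52.6%) and SLC7A1 (52.7%) lie in between, and SLC3A2 (57.8%), SLC6A9 (59.98%), SLC7A5 (61.2%) and SLC1A5 (61.3%) are GC-rich. Among all tested genes, the median log2 fold change against TPC1 was 0.26 in the fifth of lowest GC and -0.13 in the fifth of highest GC for D11. It was 0.21 and -0.12 for WB1, and 0.041 and -0.021 for TD5. Within single libraries the gap between GC-rich and GC-poor genes ran from 0.097 to 0.30 in TPC1, -0.29 to -0.082 in D11, -0.24 to 0.024 in WB1 and -0.023 to 0.32 in TD5. Over the 9 transporter genes, the log2 fold change fell with GC content in D11 (Pearson's r = -0.90), WB1 (-0.82) and TD5 (-0.62), a description over 9 genes measured in the same libraries. For the transporter genes, the differences from TPC1 are therefore given also from a fit in which every library was corrected for its trend with GC content. The pathway lists further on are given without that correction. What produced the trend was not tested.

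**Figure D3:**
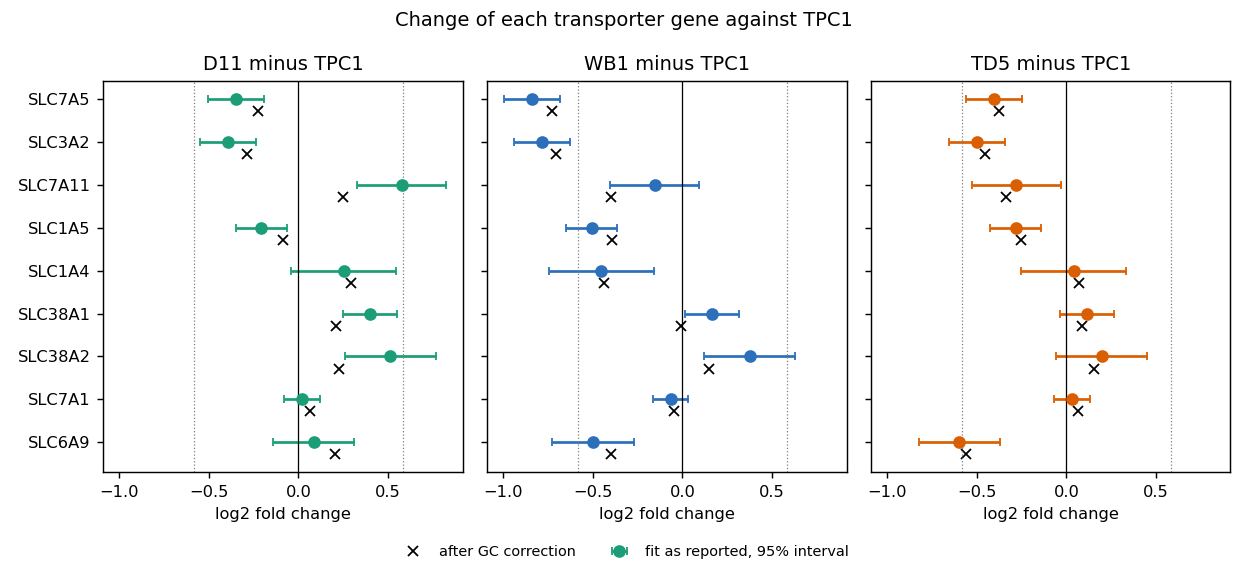
log2 fold change of each transporter gene against TPC1 in D11, WB1 and TD5. Coloured points and bars are the limma estimates with their 95% confidence intervals, crosses the estimates after GC correction, and dotted lines 1.5-fold. In D11 the crosses lie nearer 0 than the points for SLC7A11 (0.25 against 0.58) and SLC38A2 (0.23 against 0.51), whereas SLC7A5 and SLC3A2 in WB1 stay past 1.5-fold.

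SLC7A5 and SLC3A2, the light and heavy chain of the large neutral amino acid exchanger, were lower in all 3 clones and lowest in WB1. SLC7A5 (ENSG00000103257, GRCh38 chr16:87830023-87869507, minus strand) had 29493, 27922 and 34470 scaled reads in TPC1. D11 had 23980, 24144 and 23763, WB1 16396, 17360 and 17331, and TD5 21138, 25741 and 22539. Every clone library thus lay below the lowest TPC1 library, and WB1 lay below every library of the other 2 clones. The log2 fold change against TPC1 was -0.84 in WB1 (SE 0.0747, limma adjusted p = 1.34e-06), which is 0.558-fold. In D11 it was -0.35 (SE 0.0747, limma adjusted p = 0.00286) and in TD5 -0.40 (SE 0.0747, limma adjusted p = 0.00203), both under 1.5-fold. After GC correction the values were -0.73 in WB1, -0.23 in D11 and -0.37 in TD5. WB1 was also lower than D11 (log2 fold change -0.49, limma adjusted p = 0.000314) and TD5 higher than WB1 (0.44, limma adjusted p = 0.00131), again by less than 1.5-fold. GC correction gave -0.50 and 0.36 for these.

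SLC3A2 (ENSG00000168003, chr11:62856004-62888880, plus strand) followed the same order. Its scaled reads were 8970, 8424 and 10443 in TPC1, 7156, 7146 and 6801 in D11. WB1 had 5358, 5222 and 5486, and TD5 6318, 7252 and 6082. The log2 fold change of the heavy chain in WB1 was -0.79 (SE 0.0746, limma adjusted p = 2.96e-06), or 0.580-fold, with no overlap between the lines. D11 (-0.39, limma adjusted p = 0.00121) and TD5 (-0.50, limma adjusted p = 0.000353) were also below TPC1 without overlap, but by less than 1.5-fold. GC correction gave -0.70 in WB1, -0.29 in D11 and -0.45 in TD5. WB1 lay below D11 (-0.39, limma adjusted p = 0.00247, and -0.41 with GC correction).

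The ratio of both chains moved less than either gene. Per length, SLC7A5 was 1.37 ± 0.00551 times SLC3A2 in TPC1 (SD, n = 3), 1.41 ± 0.0314 times in D11, 1.32 ± 0.0552 times in WB1 and 1.46 ± 0.0747 times in TD5. Over the 12 libraries log2 levels of SLC7A5 and SLC3A2 correlated at r = 0.975, and at 0.893 after the mean of each line was removed. These are descriptions, since libraries share both their line and their GC trend.

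A long non-coding gene on the opposite strand, AC126696.2 (ENSG00000260466), overlaps SLC7A5 and gave 2565 to 3156 scaled reads in TPC1, 2099 to 2252 in D11, 1498 to 1572 in WB1 and 1894 to 2131 in TD5. Of 12242 genes with at least 5 per 1000000, its log2 level was the most like that of SLC7A5 (r = 0.988 over 12 libraries), ahead of ENG (0.979) and THEM6 (0.977). The libraries are stranded, but the strand setting of the counting is not given in the sources used here, so reads of SLC7A5 and AC126696.2 cannot be told apart with certainty. For SLC3A2 the most similar genes were CMIP (0.987), SLC1A5 (0.979) and SLC7A5 (0.975).

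SLC7A11, the cystine and glutamate exchanger that shares the heavy chain, did not follow SLC7A5. SLC7A11 (ENSG00000151012, chr4:138164097-138242349, minus strand) had 591, 475 and 578 scaled reads in TPC1, 699, 875 and 910 in D11. WB1 had 474, 568 and 431, and TD5 423, 419 and 501. All D11 libraries lay above every other library. D11 differed from TPC1 by a log2 fold change of 0.58 (SE 0.118, limma adjusted p = 0.00216). On the scale with 1 added this is 1.49-fold, just under the 1.5-fold of the rule, while the mean scaled reads were 1.51 times those of TPC1. With 0.1 added in place of 1 the value was 0.59, a call. The call was also made without TPC1 replicate 1 (0.63), without TPC1 replicate 3 (0.62) and without D11 replicate 1 (0.69). GC correction lowered the value to 0.25, and SLC7A11 is the most GC-poor of the 9 transcripts.

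In WB1 (-0.16, limma adjusted p = 0.330) and TD5 (-0.28, limma adjusted p = 0.139) the SLC7A11 libraries overlapped those of TPC1 and the difference did not pass. After GC correction the values were -0.40 in WB1 and -0.33 in TD5, both with an adjusted p under 0.05. SLC7A11 had an adjusted p under 0.05 in 3 of the 24 alternatives for WB1 (adjusted p 0.000798 to 0.704) and in 2 of 24 for TD5 (0.00517 to 0.331). Between clones, WB1 was lower than D11 by a log2 fold change of -0.73 (SE 0.118, limma adjusted p = 0.000587) and TD5 by -0.85 (SE 0.118, limma adjusted p = 0.000109). With GC correction these became -0.65 and -0.58, and the latter no longer reached 1.5-fold.

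Per length, SLC7A11 was 0.847% ± 0.0861 of SLC7A5 in TPC1 (SD, n = 3), 1.63% ± 0.227 in D11, 1.36% ± 0.185 in WB1 and 0.921% ± 0.142 in TD5. The libraries of D11 (1.38% to 1.81%) and of WB1 (1.17% to 1.55%) lay above all of TPC1 (0.792% to 0.947%), while TD5 (0.769% to 1.05%) overlapped with it. SLC7A11 is GC-poor and SLC7A5 GC-rich, so this ratio also moves with the GC trend of a library. The antisense gene SLC7A11-AS1 had 34 to 49 scaled reads in TPC1, 55 to 105 in D11, 37 to 50 in WB1 and 38 to 51 in TD5. Since the strand setting of the counting is not given, its reads cannot be told from those of SLC7A11 with certainty.

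SLC7A1, the cationic transporter, was the most even of the group. SLC7A1 (ENSG00000139514, chr13:29509414-29595688, minus strand) had 7845, 8115 and 7724 scaled reads in TPC1 and 8020, 7859 and 8156 in D11. WB1 had 7508, 7342 and 7773, and TD5 8068, 8050 and 8091. The highest of the 12 values was 1.11 times the lowest, and for the other 8 genes this ratio lay between 1.498 and 2.20. Against TPC1 the log2 fold change was 0.021 in D11 (95% confidence interval -0.078 to 0.12), -0.066 in WB1 (-0.17 to 0.034) and 0.032 in TD5 (-0.068 to 0.13). GC correction gave 0.063 in D11, -0.048 in WB1 and 0.064 in TD5. With another scaling, by the median of ratios, the value for D11 was below 0 (-0.038), and so it was with length correction (-0.11).

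SLC1A5, the glutamine exchanger, moved with the SLC7A5 and SLC3A2 pair, and SLC1A4 differed mainly between clones. SLC1A5 (ENSG00000105281, chr19:46774883-46788594, minus strand) had 4752, 4690 and 5412 scaled reads in TPC1 and 4360, 4148 and 4329 in D11. WB1 had 3582, 3309 and 3541, and TD5 3998, 4422 and 3780. The lowest TPC1 library exceeded all 9 clone libraries, as it did for SLC7A5 and SLC3A2, so that 3 of the 9 genes showed this where 6.51% of all tested genes did. The log2 fold change of SLC1A5 was -0.51 in WB1 (SE 0.0676, limma adjusted p = 6.84e-05), -0.21 in D11 (SE 0.0676, limma adjusted p = 0.0271) and -0.28 in TD5 (SE 0.0676, limma adjusted p = 0.0114). None reached 1.5-fold. GC correction gave -0.39 in WB1, -0.085 in D11 and -0.25 in TD5, and the adjusted p in D11 was then above 0.05 (0.0109 to 0.306 over 24 alternatives). AC008622.2 overlaps SLC1A5 on the opposite strand and had 698 to 1208 scaled reads.

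SLC1A4 (ENSG00000115902, chr2:64988477-65023865, plus strand) was the least abundant member, with 114, 89 and 140 scaled reads in TPC1, 128, 165 and 124 in D11. WB1 had 78, 75 and 78, and TD5 131, 114 and 106. WB1 lay below all libraries of the other lines. It was lower than D11 by a log2 fold change of -0.70 (SE 0.139, limma adjusted p = 0.00322), a call, and lower than TPC1 by -0.45 (SE 0.139, limma adjusted p = 0.0211), which is less than 1.5-fold. Without TPC1 replicate 2, whose value of 89 is the lowest of its line, the difference from TPC1 was -0.59 and was called. GC correction left -0.73 against D11 and -0.44 against TPC1.

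SLC38A1 and SLC38A2, sodium-coupled carriers of glutamine and alanine, were higher in D11 than in TPC1. They are neighbours on chromosome 12, on the same strand with 88170 bases between them. SLC38A1 (ENSG00000111371, chr12:46183063-46270017, minus strand) had 6041, 5568 and 5320 scaled reads in TPC1, 7079, 7295 and 7969 in D11. WB1 had 6080, 6615 and 6246, and TD5 6124, 5537 and 6731. Its log2 fold change in D11 was 0.40 (SE 0.0715, limma adjusted p = 0.000803), with no overlap, but under 1.5-fold. In WB1 the libraries did not overlap with TPC1 either, yet the difference of 0.16 did not pass (limma adjusted p = 0.0933), and in TD5 it was 0.12 (limma adjusted p = 0.317). GC correction gave 0.21 in D11, -0.0083 in WB1 and 0.088 in TD5.

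SLC38A2 (ENSG00000134294, chr12:46358188-46372773, minus strand) had 4035, 4116 and 3220 scaled reads in TPC1, 5036, 5306 and 5851 in D11. WB1 had 4863, 5497 and 4382, and TD5 4507, 3480 and 5164. D11 and WB1 lay above every TPC1 library and TD5 overlapped with it. Against TPC1 it differed by 0.51 in D11 (SE 0.121, limma adjusted p = 0.00489), 0.38 in WB1 (SE 0.121, limma adjusted p = 0.0266) and 0.20 in TD5 (SE 0.121, limma adjusted p = 0.312), each under 1.5-fold. After GC correction these were 0.23, 0.15 and 0.15, and for WB1 the difference then no longer passed, with an adjusted p under 0.05 in 17 of 24 alternatives (0.00732 to 0.217).

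Within lines, libraries with more SLC38A2 had less SLC3A2 (r = -0.915 over 12 libraries, line means removed) and less SLC1A5 (-0.894). The GC trend of the library moved with both sides. Within lines the correlation with the gap between GC-rich and GC-poor genes was -0.92 for SLC38A2, -0.85 for SLC38A1 and -0.69 for SLC7A11, and 0.73 for SLC3A2, 0.72 for SLC1A5 and 0.56 for SLC7A5. For SLC7A1 (0.18), SLC1A4 (0.20) and SLC6A9 (0.15) it was small. SLC38A1 and SLC38A2 correlated at 0.899 over the libraries and at 0.873 within lines.

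**Figure D4:**
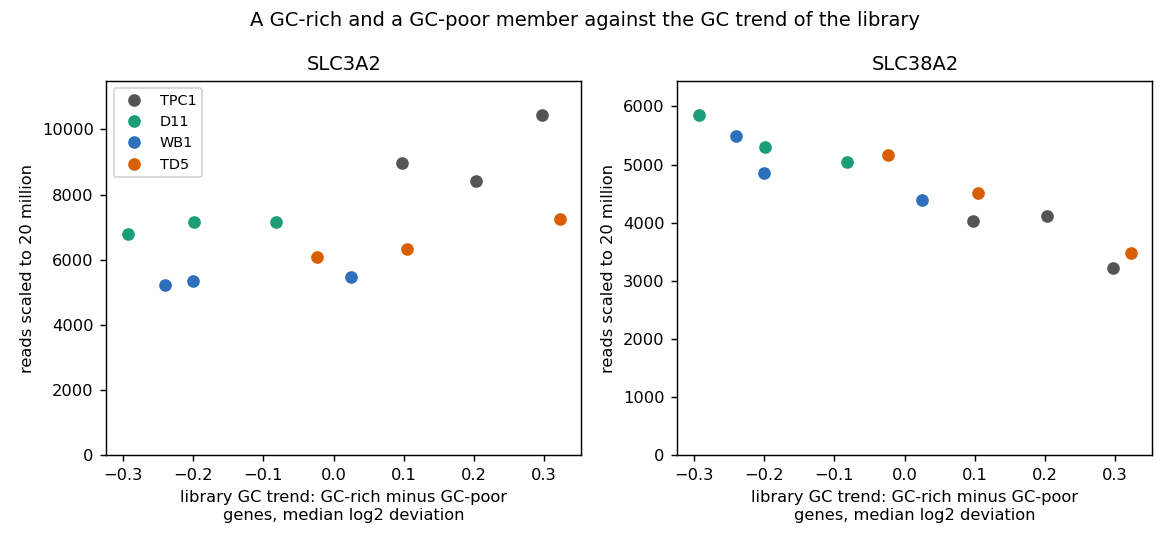
Scaled reads of SLC3A2 (left) and SLC38A2 (right), from 0, against the GC trend of each library, which is the median log2 deviation of GC-rich genes minus that of GC-poor genes. Each point is 1 library, coloured by line. SLC38A2 falls across libraries from 5851 in a D11 library with a trend of -0.29 to 3480 in a TD5 library with a trend of 0.32. For SLC3A2, WB1 (5222 to 5486) lies below D11 (6801 to 7156). The WB1 libraries with 5358 and 5222 have trends within those of D11, and the one with 5486 has a trend of 0.024, above them.

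SLC6A9, the glycine transporter, was lower in WB1 and TD5 than in TPC1 and D11. SLC6A9 (ENSG00000196517, chr1:43991500-44031467, minus strand) had 259, 224 and 211 scaled reads in TPC1, 241, 276 and 223 in D11. WB1 had 155, 162 and 155, and TD5 142, 162 and 134. The highest value in WB1 and TD5, 162, lay below the lowest in TPC1 and D11, 211. In TD5 the log2 fold change was -0.60 (SE 0.108, limma adjusted p = 0.00159), or 0.661-fold, a call. In WB1 it was -0.50 (SE 0.108, limma adjusted p = 0.00291), under 1.5-fold, and D11 did not pass (0.085, limma adjusted p = 0.561). With GC correction the values were 0.20 in D11 and -0.40 in WB1. The call in TD5 was close to its limit. It was lost with GC correction (-0.56), without TPC1 replicate 1 (-0.52), without TD5 replicate 1 (-0.58) and without TD5 replicate 3 (-0.55), while the adjusted p was 0.0137 or lower in all 24 alternatives. TD5 was lower than D11 by -0.68 (limma adjusted p = 0.000357), which was called and became -0.76 with GC correction. WB1 was lower than D11 by -0.58 (limma adjusted p = 0.00186), just under 1.5-fold on the scale with 1 added. It was a call in 9 of the 24 alternatives, among them GC correction (-0.60) and 0.1 added in place of 1 (-0.64). The genes most like SLC6A9 over the libraries were FAM212B (r = 0.964), TIPARP (0.961) and EPRS (0.958), the last a tRNA synthetase for glutamate and proline. CCDC24 (58 to 82 scaled reads) and AL139220.2 (79 to 129) overlap SLC6A9 on the opposite strand.

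The clones also differed among themselves. In WB1 against D11, 2 of 9 genes were called lower (SLC7A11 and SLC1A4), where 0.88% of all tested genes were, and in 8 of 9 the WB1 libraries lay wholly below those of D11, where 12.4% of all genes did. Their median log2 difference was -0.39, beside -0.0016 over all genes. TD5 against D11 gave 2 calls, both lower (SLC7A11 and SLC6A9), where 2.32% of genes were called lower. TD5 against WB1 gave 0 calls in either direction, where 2.33% of all genes were called, but 4 genes passed an adjusted p under 0.05 upwards (SLC7A5, SLC3A2, SLC1A4 and SLC1A5), where 4.52% did. The clone lowest in DICER1 RNA was TD5, and the one lowest in SLC7A5, SLC3A2 and SLC1A5 was WB1. DICER1 is given without GC correction. Within lines its level correlated at -0.86 with the gap between GC-rich and GC-poor genes. A link between DICER1 and the transporter genes was not tested. The DICER1 difference between WB1 and D11 did not pass the test (log2 difference -0.24, limma adjusted p = 0.178).

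Further lists of the same pathway were counted over the tested genes. Among all tested genes, the rate of calls in D11 was 2.89% upwards and 1.95% downwards. For WB1 the rates were 3.39% and 1.59%, and for TD5 1.12% and 1.48%. Counts with no minimum fold are to be set against the shares of all genes given above for that rule, 13.4%, 12.3% and 6.57% lower and 19.9%, 18.6% and 5.32% higher in D11, WB1 and TD5. Of 44 other amino acid transporter genes, 20 had enough reads. D11 had 3 called lower and 0 higher, WB1 0 and 1, and TD5 1 and 0, with medians of -0.080, -0.038 and -0.13. SLC6A15, a carrier of branched-chain amino acids and proline, had 25 to 31 scaled reads in TPC1 and 0, 0 and 2 in D11, all at or under the floor and at least 7.24-fold lower, taking the mean floor of the D11 libraries. In WB1 it rose to 47 to 70 (log2 fold change 0.77, limma adjusted p = 0.00127). SLC7A7, a light chain that also pairs with SLC3A2, fell in D11 from 44 to 62 scaled reads to 16 to 25 (-0.78, limma adjusted p = 0.00121). SLC7A7 was also lower in TD5 (-0.53, limma adjusted p = 0.0269), by less than 1.5-fold. SLC1A3, a glutamate transporter, fell in D11 from 297 to 346 scaled reads to 184 to 230 (-0.60, limma adjusted p = 0.000825). SLC43A2, a sodium-independent carrier of large neutral amino acids, fell in TD5 (-0.60, limma adjusted p = 0.0390), with 107 to 193 scaled reads in TPC1 and 65 to 104 in TD5.

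Among 20 tested genes of the ATF4 response, D11 and WB1 had 0 calls and TD5 1 (VLDLR, 681 to 683 scaled reads in TPC1 and 943 to 1122 in TD5, log2 fold change 0.59). At an adjusted p under 0.05 alone, D11 had 3 higher and 4 lower, WB1 4 higher and 8 lower, and TD5 1 higher and 5 lower, with medians of -0.061, -0.16 and -0.13. NUPR1, a stress-induced chromatin factor, differed by -0.51 in WB1 and -0.58 in TD5, and ATF5 by -0.49 in D11 and -0.57 in WB1, each under 1.5-fold. CTH, which makes cysteine from cystathionine, differed by -0.58 in D11 and -0.41 in TD5. VLDLR was also higher in WB1 (0.40), by less than 1.5-fold. The 20 aminoacyl-tRNA synthetase genes, which charge tRNAs with amino acids, had 0 calls in any clone. With no minimum fold, 5 were lower in D11, 11 in WB1 and 8 in TD5, with 1 higher in each, beside 13.4%, 12.3% and 6.57% of all genes lower, and medians of -0.082, -0.20 and -0.14. MARS had 5648 to 5838 scaled reads in TPC1 and 3958 to 4388 in WB1 (-0.45), and AARS 7577 to 8284 and 5806 to 6382 (-0.38). In TD5, MARS (-0.36) and AARS (-0.26) were lower too. FARSA differed by -0.47 in both D11 and WB1 and by -0.38 in TD5. HARS differed by -0.38 in D11, -0.33 in WB1 and -0.29 in TD5.

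Genes that make or use the transported amino acids gave few calls, in both directions. Of 17 genes of serine, glycine and one-carbon synthesis, 0 were called in D11 and TD5, and in WB1 GLDC, the glycine cleavage decarboxylase, rose (108 to 117 scaled reads in TPC1, 203 to 232 in WB1, log2 fold change 0.87) and PYCR1, which completes proline synthesis, fell (1873 to 2170, 1228 to 1278, -0.67). GLDC was also higher in D11 (0.44) and TD5 (0.42), and PYCR1 also lower in TD5 (-0.30), each under 1.5-fold. ALDH1L2, a mitochondrial folate enzyme, was higher in D11 (0.38) and lower in WB1 (-0.27) and TD5 (-0.47), each under 1.5-fold. AMT, which works with GLDC, had 9 to 13 scaled reads in TPC1, 21 to 22 in D11, 18 to 32 in WB1 and 8 to 23 in TD5. It was not called in any clone (log2 fold changes 0.40, 0.45 and 0.031). At so low a level the 1 added to each value understates these changes. Of 14 genes of cystine and glutathione metabolism, OPLAH, the oxoprolinase of the glutathione cycle, was called lower in all 3 clones, where 0.374% of all tested genes were. OPLAH had 144 to 206 scaled reads in TPC1, 72 to 81 in D11, 67 to 112 in WB1 and 82 to 107 in TD5, with log2 fold changes of -0.98, -0.78 and -0.72. CSAD, which leads to taurine, rose in D11 (0.59) and WB1 (0.80). GSTP1 was lower in D11 (-0.37), WB1 (-0.48) and TD5 (-0.23) and GCLM, a subunit of the first enzyme of glutathione synthesis, higher in D11 (0.39) and WB1 (0.30), all under 1.5-fold.

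For glutamine and glutamate metabolism, 0 of 14 genes were called in any clone, and 6, 7 and 3 were lower with no minimum fold in D11, WB1 and TD5. GLUL, glutamine synthetase, differed by -0.34 in D11 and -0.53 in TD5, and GPT2 by -0.40 in D11 and -0.28 in WB1. CTPS1 was lower in D11 (-0.23), WB1 (-0.42) and TD5 (-0.34), and so was OAT (-0.24, -0.38 and -0.34). Of 13 genes of arginine and polyamine metabolism, ASS1 was the only one called. ASS1, which lets cells make arginine from citrulline, had 30 to 50 scaled reads in TPC1, 2 to 9 in D11 (2 of 3 libraries under the floor), 79 to 91 in WB1 and 7 to 10 in TD5, and so moved down in D11 and TD5 and up in WB1 (log2 fold changes -1.20, -0.99 and 0.88). SAT1 differed by -0.43 in TD5. SRM differed by -0.34 in D11 and -0.28 in WB1, and AMD1 by 0.32 in D11 and 0.22 in WB1.

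Of 34 tested genes that sense amino acids for mTORC1, 2 were called, both higher in WB1. These were BMT2, the sensor of S-adenosylmethionine also known as SAMTOR (131 to 152 scaled reads in TPC1, 226 to 271 in WB1, log2 fold change 0.74), and RRAGD, a Rag GTPase (175 to 197, 279 to 330, 0.65). SESN1, a sestrin, was higher in D11 (0.52) and lower in TD5 (-0.32), both under 1.5-fold, and it was called lower than in D11 in WB1 (-0.70) and TD5 (-0.83). FNIP1 was higher in D11 (0.36) and WB1 (0.45), both under 1.5-fold. Of 19 genes known to regulate the transporters, 1 was called. NEDD4L, a ubiquitin ligase that removes carriers from the membrane, fell in WB1 (5704 to 6262 scaled reads in TPC1, 3345 to 3589 in WB1, log2 fold change -0.81). NEDD4L was also lower by less than 1.5-fold in D11 (-0.25) and TD5 (-0.56). IMPACT was higher in D11 (0.50) and WB1 (0.40), and HIF1A in WB1 (0.41) and TD5 (0.23), each by less than 1.5-fold.

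**Figure D5:**
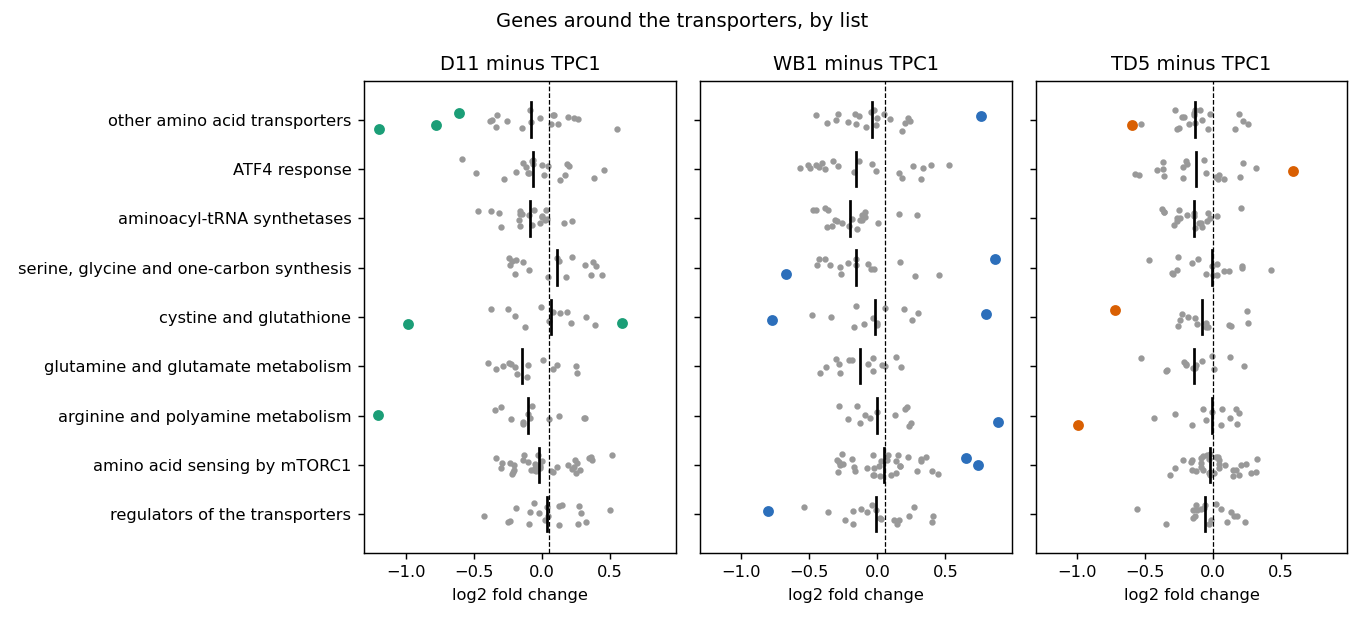
log2 fold change against TPC1 of the tested genes of 9 lists around the transporters, in D11, WB1 and TD5. Each dot is 1 gene, large coloured dots are called genes, black bars are the medians of the lists, and the dashed line is the median of all tested genes. Called genes are few in every list (at most 3 in 1 clone), and the tRNA synthetases have their lowest median in WB1 (-0.20).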

How the data were processed

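RNA-seq libraries were grouped by line from their titles and genotypes. Per the study's methods, the authors sequenced stranded mRNA libraries from both ends, aligned the reads to GRCh38 with STAR (2.5.3a per the labels), assigned them to Ensembl genes with HTSeq (0.9.1), and tested them with edgeR. The deposited values are scores: reads scaled to 20000000 per library and rounded up. Since these are not counts, edgeR was not used. Values per 1000000 were fitted as log2(value + 1) with limma 3.58.1 (R 4.3.3, mean-variance trend, 1 mean per line, all 12 libraries), for the 16027 of 58302 genes that reached 1 per 1000000 in 3 libraries or more. Fold changes of low genes are understated by the pseudocount. A call required 1.5-fold and a p under 0.05 after Benjamini-Hochberg adjustment. Reads behind each library were estimated from steps between the whole numbers. Positions, lengths and GC content came from GENCODE 44 (GRCh38), a later annotation than that of the authors, and 99.1% of tested genes had a GC content. For that correction, a trend (lowess, span 0.3) with GC was removed from each library. The fit was tested on simulated data. Likeness is Pearson's r of log2 levels.

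The transporter genes and all lists were chosen with earlier results of these data known. Named were all 9 transporter genes, DICER1, up to 4 genes per list (most comparisons called, then largest change), the 3 genes most like each called transporter gene, and overlapping genes, some of which are not reported here. Alternatives were other pseudocounts, filters and scalings, voom on the estimated reads, GC and length corrections, a replicate block and leaving out each library. Same-numbered libraries deviated together in all 3 pairs (r = 0.11, 0.17 and 0.35) only for TD5 and D11. No pairing by culture is stated.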

Additional observations from a re-analysis of the deposited data

Results flagged for a closer look

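The effects in 2 clones against the same TPC1 libraries differed for 3 transporter genes by the test of the difference between the clones, at a limma adjusted p under 0.05 and at least 1.5-fold. SLC7A11 was lower in WB1 than in D11 by a log2 difference of -0.731, and lower in TD5 than in D11 by -0.854. For SLC1A4 WB1 lay -0.704 from D11. SLC6A9 in TD5 lay -0.682 from D11. In each of these, the 3 libraries of one clone lay below all 3 of the other. This adds no support, since the calls came from the same libraries. Of all tested genes, 12.4% lay wholly lower in WB1 than in D11, and 22.7% in TD5 than in D11.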

How the results depend on the processing

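Of 1296 fold changes of transporter genes recomputed under an alternative, 1249 kept their direction and their side of the thresholds, 18 gained a call, 10 lost one and 19 changed sign, all 19 for differences that were not called. With GC correction SLC38A1 was -0.0083 for WB1 against TPC1, and for TD5 against WB1 SLC7A11 was 0.065, SLC38A1 0.096 and SLC38A2 0.0030, with the same values when the replicate block was added, an alternative chosen after seeing the data. Length correction gave SLC7A1 -0.11 for D11 against TPC1, SLC7A5 0.021 for TD5 against D11, and SLC7A11 0.025 and SLC38A1 0.080 for TD5 against WB1. Median-of-ratios scaling gave SLC7A1 -0.038 for D11 against TPC1 and SLC38A1 0.011 for TD5 against WB1. Leaving out 1 library at a time gave -0.10 to 0.18 for SLC1A4 in TD5 against TPC1 (-0.10 and -0.030 without TPC1 replicate 2 and TD5 replicate 1). For TD5 against D11 it gave -0.13 to 0.0075 for SLC7A5 (0.0075 without TD5 replicate 1) and -0.0032 to 0.024 for SLC7A1 (-0.0032 without D11 replicate 2). For TD5 against WB1 it gave -0.12 to 0.025 for SLC38A1 (0.025 without TD5 replicate 2). These lay near 0 before.

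The number of called genes moved as follows. D11 against TPC1 had 0 calls, and 1 with a pseudocount of 0.1, with sums without mitochondrially encoded genes and with voom, SLC7A11 each time. WB1 against TPC1 kept 2 calls except with no minimum fold and without TPC1 replicate 2, which gave 3 with SLC1A4 added. TD5 against TPC1 had 1, and 0 with a pseudocount of 4, with GC correction and with GC correction in the replicate block. WB1 against D11 had 2, and 1 with a pseudocount of 4, but 3, with SLC6A9 added, with a pseudocount of 0.1, median-of-ratios scaling, sums without mitochondrially encoded genes, voom, and GC correction with or without the replicate block. TD5 against D11 had 2, and 1 with a pseudocount of 4, with GC correction and with GC correction in the replicate block. TD5 against WB1 had 0, and 1 with a pseudocount of 0.1 and with voom (SLC1A4). With no minimum fold the counts were 6, 6, 4, 6, 3 and 4 in the order D11, WB1 and TD5 against TPC1, WB1 against D11, TD5 against D11, and TD5 against WB1. The share of all tested genes that passed this rule was 33.3%, 30.9%, 11.9%, 8.07%, 23.2% and 13.6%, listed alike. Leaving out each library in turn gave 0 to 1, 2 to 3, 0 to 1, 2 to 3, 2 to 2 and 0 to 0 in the same order, and 7 to 8 of 9 genes in the F test. The replicate block alone changed no call: the counts stayed at 0, 2, 1, 2, 2, 0 and, in the F test, 8. GC correction gave 7 and length correction 9 in the F test. The causes of these moves were not tested. The 12 libraries and 3 per line limit the smallest change that can be called, and depth limits SLC1A4 most, whose lowest value was 75 scaled reads.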
